A study of Caenorhabditis elegans with 11 samples.

Results

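Old wild-type Caenorhabditis elegans that had lived on indole-producing bacteria were compared with old wild-type worms that had lived on bacteria unable to make indole. The comparison used the 4 libraries of late N2 worms, chosen by their titles, of 11 libraries in all. N2 is the standard wild-type strain. Of these libraries, 2 came from worms on Escherichia coli K12 (replicates 1 and 3) and 2 from worms on the tnaA strain of K12 (replicates 2 and 3), from which the tryptophanase gene is deleted. Old worms were 12 days of age by the labels. Young N2 worms on K12 (n = 3) and on tnaA (n = 2), 3 days of age by the labels and called 2-day adults in the text on the design, and old worms with the loss-of-function allele ahr-1(ia3) on K12 (n = 2) are set beside them where stated. In every group worms grew at 16 °C on their bacteria from the embryo onward, and each library held RNA of whole animals, pooled from about 150 adults. The 2 bacterial diets differ in a bacterial gene, so worm reads cannot check which bacteria a library came from, and indole itself was not measured.

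Tryptophanase splits tryptophan and releases indole, which diffuses out of the bacteria and acts as a signal between bacteria and on their hosts. E. coli is both the food of laboratory worms and, as the animals age, the colonist of their gut. Indole compounds are known ligands of the aryl hydrocarbon receptor of mammals, whose worm orthologue is AHR-1 with its partner AHA-1. In ageing hermaphrodites the gonad declines, yolk protein genes decline and the intestine, the main organ for digestion, defence and fat storage, loses structure.

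The 4 old N2 libraries held 15.3 and 14.5 (K12 replicates 1 and 3) and 14.7 and 8.31 (tnaA replicates 2 and 3) in units of 1e6 gene reads. The library of tnaA replicate 3 stood apart: it was the shallowest of all 11, and 14.8% of its counted reads lay outside genes, against 8.27% to 9.26% in the other 3. Its level of rrn-2.1, a ribosomal RNA gene, was 1030.6 counts per 1e6 reads (CPM, here scaled by TMM), against 84.8 to 173 in the other 3. The part of that library's quality in the differences below was not tested, and values without each of the 4 libraries in turn are therefore given beside most list counts. Of the marker lists for tissues, all 32 germ cell genes, all 25 intestine genes and all 41 muscle genes had reads in each of the 4 libraries. The 85 sperm genes summed to only 148 to 172 CPM in the 4 libraries, and 44 to 73 of them had a read.

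Of 15133 genes tested with edgeR's quasi-likelihood test, 886 were higher on K12 than on tnaA (5.85% of those tested) and 646 were lower (4.27%) at a Benjamini-Hochberg adjusted p under 0.05, 10.1% together. With 2 libraries a group, both K12 libraries lay above both tnaA libraries in 24.9% of genes and below them in 32.8%, 57.7% in all, so that separate groups alone are common. Throughout, "rose" and "fell" describe K12 relative to tnaA in old worms, and a positive log2 fold change means a higher level on K12. Most changes were small: 62 of the genes that rose and 37 of those that fell differed 2-fold or more. The median log2 fold change of all genes tested was -0.06. The counts leaned on single libraries. Without K12 replicate 1 the test called 42 genes higher and 17 lower, and without tnaA replicate 3 it called 10 and 15. Without K12 replicate 3 it called 459 and 268, and without tnaA replicate 2 it called 336 and 136. Each of these fits leaves 1 group with a single library, which is assumed to vary like the other groups. None of the 1532 genes called with all libraries was called in the opposite direction in any of the 11 fits that left out 1 library. These fits share most libraries and some call few genes, so this is a weak check.

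**Figure D1:**
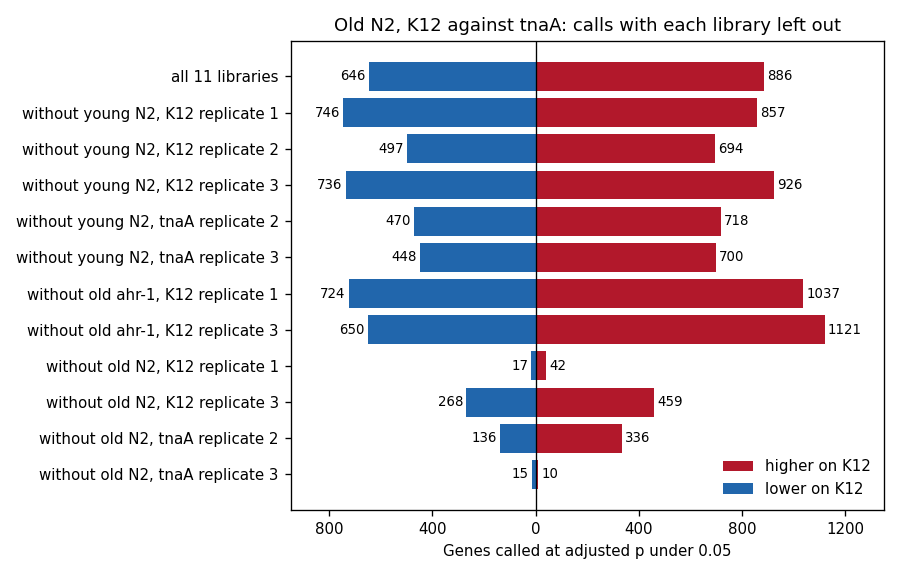
Number of genes called at an adjusted p under 0.05 in old N2 worms, K12 against tnaA, with all 11 libraries and with each library left out in turn. Red bars to the right count genes higher on K12 and blue bars to the left genes lower on K12; the counts fall to 10 higher and 15 lower without tnaA replicate 3 and to 42 and 17 without K12 replicate 1.

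A core of 17 genes was called the same way in every one of the 11 leave-out fits, 8 higher and 9 lower on K12. They include a transporter, detoxification enzymes, nuclear hormone receptors and defence proteins. The genes called higher on K12 included pgp-1, which encodes a P-glycoprotein, an ATP-driven pump of the intestinal surface that exports drugs and toxins. Its level was 39.8 and 37.9 CPM on K12 and 13.2 and 11.5 CPM on tnaA. The groups were far apart, with a log2 fold change of 1.64 ± 0.12 (SE, adjusted p = 4.46e-05 by edgeR's quasi-likelihood test). The lysozyme gene ilys-5, of the invertebrate type that cuts bacterial walls, was at 61.6 and 52.8 CPM on K12 and at 12.09 and 19.99 CPM on tnaA. It rose by 1.90 ± 0.22 (SE) on the log2 scale, the largest rise of the 17. The cytochrome P450 gene cyp-13A5, of the family that oxidises foreign and endogenous small molecules, was at 59.2 and 72.5 CPM on K12 and at 32.9 and 29.99 CPM on tnaA.

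The smallest p of all genes tested belonged to pho-14, which encodes a protein of the acid phosphatase family. Its level was 173 CPM in both K12 libraries and 78.6 and 79.8 CPM on tnaA, so replicates of a group nearly coincided. The log2 fold change was 1.12 ± 0.06 (SE, adjusted p = 5.76e-07). The gene csr-1, whose Argonaute protein binds small RNAs against germline transcripts, was at 309 and 297 CPM on K12 and at 219 and 211 CPM on tnaA. The gene agt-1, named for an alkylguanine DNA alkyltransferase that repairs DNA, was at 26.4 and 26.8 CPM on K12 and at 17.3 and 18.0 CPM on tnaA. Both rises were modest, 0.50 and 0.60 on the log2 scale, with no overlap between groups. The other 2 genes that rose in every fit, F37H8.3 and Y37H2A.14, have sequence names only. The level of F37H8.3 was 33.1 and 31.6 CPM on K12 against 8.73 and 10.2 CPM on tnaA.

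Among the 9 genes lower on K12, nhr-155 stood out as nearly silent on K12. This gene for a nuclear hormone receptor, a family of DNA-binding proteins many of which respond to small lipids, had 5 and 3 reads in the K12 libraries and 122 and 82 reads in the tnaA libraries. In CPM these were 0.286 and 0.182 on K12 and 7.20 and 8.45 on tnaA, a log2 fold change of -5.0 ± 0.46 (SE, adjusted p = 0.001). No read of it was counted in any of the 5 young libraries, and the old ahr-1(ia3) libraries on K12 held 2 and 1 reads. The old tnaA libraries were thus the only ones of the series with more than 5 reads of nhr-155. The family members nhr-136, at 12.303 and 11.9 CPM on K12 and 31.97 and 28.6 CPM on tnaA, and nhr-137, at 19.5 and 20.3 CPM on K12 and 41.9 and 38.4 CPM on tnaA, also fell.

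Defence and detoxification genes made up more of the core that fell. The saposin-like gene spp-1, whose protein makes pores in bacterial membranes, was at 5.78 and 4.24 CPM on K12 and at 15.6 and 12.7 CPM on tnaA. It fell by 1.51 on the log2 scale (SE 0.16). The cytochrome P450 gene cyp-35C1, of an intestinal subfamily known for its response to foreign compounds, was at 12.303 and 12.4 CPM on K12 and at 25.7 and 21.5 CPM on tnaA. The gene hpo-15, named for hypersensitivity of its mutants to a pore-forming toxin, was at 31.9 and 29.1 CPM on K12 and at 61.2 and 53.2 CPM on tnaA. For each of these genes both tnaA libraries lay above both K12 libraries.

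The metallothionein gene mtl-2, whose small protein binds zinc, copper and cadmium, was at 40.7 and 41.4 CPM on K12 and at 80.1 and 66.9 CPM on tnaA, a fall of 0.85 on the log2 scale. The gene mdl-1, for a helix-loop-helix repressor of the Mad family, was at 57.5 and 59.2 CPM on K12 and at 84.5 and 88.1 CPM on tnaA. The galectin gene lec-2, for a sugar-binding protein, was the most abundant of the core, at 636 and 564 CPM on K12 and at 884 and 782 CPM on tnaA. Their log2 fold changes, from -0.85 for mtl-2 to -0.47 for lec-2, were smaller than those of the receptors but exceeded the distance between replicates in both groups. The genes spp-1, hpo-15, nhr-136 and agt-1 overlap a gene on the opposite strand in the reference annotation, and the strand setting of the counting is not given in the sources used here. The partner of hpo-15, the receptor gene nhr-47, fell too (log2 fold change -0.42, adjusted p = 0.017), and the reads of that pair cannot be told apart. The partner of spp-1, T07C4.3, was called higher (log2 fold change 0.38). Of 90 named genes looked up, 18 have such an overlap, and for 5 of them a partner was called.

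**Figure D2:**
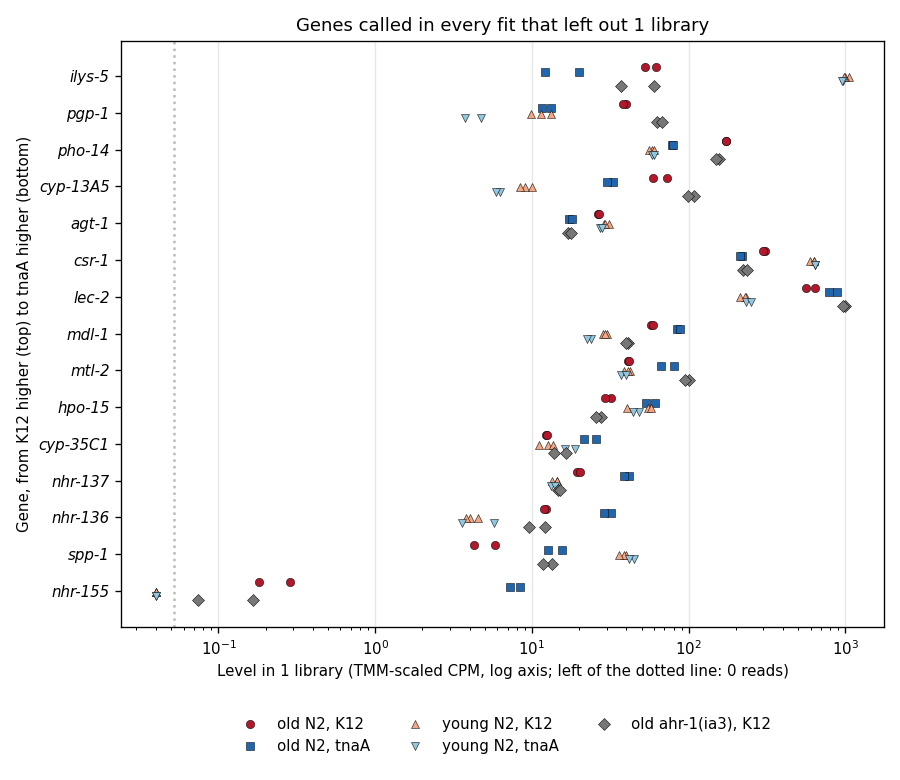
Level of the 15 genes with a symbol that were called in all 11 leave-out fits, 1 point per library on a log axis in TMM-scaled CPM, with the 5 groups of the series as colours and shapes. Old N2 on K12 (red circles) and old N2 on tnaA (blue squares) do not overlap for any of the 15; pgp-1 and ilys-5 are among the genes higher on K12 at the top, and nhr-155, at 0 reads in the young libraries, is at the bottom.

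Nuclear hormone receptor genes that were called were all lower on K12. Of 197 tested, 26 fell and 0 rose, a share of 13.2% lower against 4.27% of all genes, and the median log2 fold change of the family was -0.26, with 174 negative and 23 positive. DESeq2 called 14 lower and 0 higher, and at an unadjusted p under 0.05 edgeR had 57 lower and 1 higher. DESeq2 gave no adjusted p for 7335 of the 15133 genes, 124 of them called by edgeR. Its counts here and below therefore leave out genes to which it gave no adjusted p. Beside the 3 receptors above, nhr-168 was at 15.2 and 15.4 CPM on K12 and at 28.4 and 27.4 CPM on tnaA, and its neighbour on the chromosome, nhr-129, was at 12.5 and 12.4 CPM on K12 and at 24.1 and 23.1 CPM on tnaA. Their log2 fold changes were -0.87 and -0.92. The much studied nhr-49, a regulator of fat breakdown and fasting genes, was at 187 CPM in both K12 libraries and at 232 and 219 CPM on tnaA. Its log2 fold change was -0.27. The gene nhr-25, for a receptor needed for moulting and epidermal development, was at 38.8 and 36.5 CPM on K12 and at 50.9 and 50.2 CPM on tnaA. Without K12 replicates 1 and 3 and tnaA replicates 2 and 3, in turn, 4, 12, 8 and 3 of the family were called lower and 0 higher.

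Metal handling genes followed the same direction where they were called. Of 24 tested, 4 fell (16.7%) and 0 rose, against 7 and 3 at an unadjusted p under 0.05 by edgeR and 3 and 0 by DESeq2. The ferritin gene ftn-1, for the intestinal iron store, was at 5.89 and 6.42 CPM on K12 and at 19.8 and 13.5 CPM on tnaA, a log2 fold change of -1.45 ± 0.20 (SE). It was called in every leave-out fit other than that without K12 replicate 1. The second ferritin gene, ftn-2, was at 85.4 and 103.7 CPM on K12 and at 117 and 122 CPM on tnaA. The haem transporter gene hrg-1 was at 38.7 and 40.4 CPM on K12 and at 50.97 and 51.2 CPM on tnaA. The other metallothionein gene, mtl-1, was not called: its levels of 21.7 and 14.1 CPM on K12 and 23.01 and 17.4 CPM on tnaA overlapped, with a log2 fold change of -0.19 ± 0.19 (SE). Its sign turned without K12 replicate 3 or tnaA replicate 2. The number of metal genes called lower was 1, 3, 2 and 2 without K12 replicates 1 and 3 and tnaA replicates 2 and 3, in turn.

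Genes of innate defence went both ways. Of 12 lysozyme genes, 1 rose (ilys-5) and 3 fell, and without a filter on low counts 5 rose. The main shares were 8.33% higher and 25% lower, against 5.85% and 4.27% of all genes. The neighbours ilys-3 and ilys-2 were low and went against ilys-5. The level of ilys-3 was 0.515 and 0.182 CPM on K12, from 9 and 3 reads, and 4.01 and 4.95 CPM on tnaA, from 68 and 48 reads. The level of ilys-2 was 0.858 and 0.545 CPM on K12 and 2.60 and 1.85 CPM on tnaA. The lysozyme gene lys-4 was at 26.95 and 35.2 CPM on K12 and at 60.5 and 52.3 CPM on tnaA. Without K12 replicates 1 and 3 and tnaA replicates 2 and 3, in turn, 1, 2, 1 and 0 lysozyme genes were called lower, and 1 was called higher each time. The tnaA libraries lay above the K12 libraries for all 3 genes, opposite to ilys-5. Of 129 C-type lectin genes, whose secreted products bind sugars, 13 rose (10.1%) and 4 fell (3.10%), DESeq2 called 7 and 2, and edgeR without a filter on low counts called 8 lower. In this family clec-41 was at 14.7 and 17.6 CPM on K12 and at 6.61 and 4.74 CPM on tnaA, whereas clec-48 was at 6.64 and 9.20 CPM on K12 and at 18.8 and 17.003 CPM on tnaA. Lectins called higher and lower numbered 4 and 1, 4 and 4, 5 and 2, and 0 and 0 without K12 replicates 1 and 3 and tnaA replicates 2 and 3, in turn.

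The p38 MAP kinase cascade of the intestine passes infection signals from the adaptor TIR-1 through the kinases NSY-1 and SEK-1 to PMK-1. Of 21 genes of the cascade and of the infection response, 1 rose and 5 fell (23.8%). The log2 fold changes of the list ran from -0.69 to 3.40, so the largest in size was a rise, of a gene not named here. Both K12 libraries lay above both tnaA libraries for 5 of the 21 and below them for 11. Over all genes tested these shares were 24.9% and 32.8%. The adaptor gene tir-1 was at 373 and 397 CPM on K12 and at 499 and 514 CPM on tnaA, a log2 fold change of -0.40. The kinase gene nsy-1 was at 89.4 and 99.6 CPM on K12 and at 115 and 118 CPM on tnaA, and sek-1 was at 70.4 and 67.6 CPM on K12 and at 83.8 and 77.7 CPM on tnaA. In these 3 genes the groups did not overlap, but sek-1 was chosen after its values were seen. The gene vhp-1, for a phosphatase that restrains the stress kinases, was at 388 and 389 CPM on K12 and at 497 and 494 CPM on tnaA. The gene zip-2, for a bZIP factor induced by infection and by blocked translation, was at 683 and 780 CPM on K12 and at 911 and 1005.2 CPM on tnaA. These 5 genes were lower on K12 by 0.23 to 0.40 on the log2 scale. The gene of the last kinase, pmk-1, was not called: it was at 39.9 and 44.4 CPM on K12 and at 48.3 and 48.02 CPM on tnaA, a log2 fold change of -0.19 ± 0.08 (SE, adjusted p = 0.141). In the fits without K12 replicates 1 and 3 and tnaA replicates 2 and 3, 0, 3, 1 and 0 of the list were called lower.

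Genes for detoxification and export split within their families. Of 53 ABC transporter genes 6 rose (11.3%) and 5 fell (9.43%). DESeq2 called 3 higher and 4 lower. The P-glycoprotein gene pgp-14, of the pharynx, was at 10.9 and 7.81 CPM on K12 and at 4.07 and 4.95 CPM on tnaA. The neighbours pgp-3 and pgp-4 went opposite ways. The gene pgp-3 was at 9.79 and 10.2 CPM on K12 and at 7.02 and 7.32 CPM on tnaA. The gene pgp-4 was at 38.8 and 36.6 CPM on K12 and at 49.6 and 56.2 CPM on tnaA. Their log2 fold changes were 0.48 and -0.48, each without overlap. The gene mrp-5, for an exporter of haem from the intestine, was at 295 and 302 CPM on K12 and at 379 and 356 CPM on tnaA. Of the ABC transporters, 1 and 0, 2 and 1, 1 and 2, and 1 and 0 were called higher and lower without K12 replicates 1 and 3 and tnaA replicates 2 and 3, in turn; pgp-1 was among them each time.

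Of 66 cytochrome P450 genes 5 rose (7.58%) and 6 fell (9.09%), and of 59 UDP-glucuronosyltransferase genes, whose products attach sugars to make small molecules soluble, 3 rose (5.08%) and 6 fell (10.2%), or 11 lower without a filter on low counts. The P450 gene cyp-34A9 was at 7.21 and 12.11 CPM on K12 and at 23.3 and 16.8 CPM on tnaA. Of the transferases, ugt-31 was at 15.3 and 16.05 CPM on K12 and at 25.8 and 31.02 CPM on tnaA, and ugt-64 went the other way, at 32.4 and 35 CPM on K12 and at 22.7 and 18.5 CPM on tnaA. Shares of both families called higher were near those of all genes. Among 41 glutathione S-transferase genes 0 rose and 1 fell, against 0 and 6 at an unadjusted p under 0.05 by edgeR and 0 and 0 by DESeq2. The P450 counts were 2 and 1, 5 and 2, 4 and 2, and 1 and 1 higher and lower without K12 replicates 1 and 3 and tnaA replicates 2 and 3, and the transferase counts were 0 and 0, 3 and 4, 2 and 2, and 0 and 0.

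The lysosome and the fat store meet in the intestine, where the repressor MXL-3 and the activator HLH-30, the worm TFEB, set the level of lysosomal lipases and autophagy genes by feeding state. Both regulators were lower on K12. So were 3 of 25 genes of a list that marks intestinal identity (12%), with 0 higher and 20 of 25 negative, and 0, 2, 0 and 0 were called lower without K12 replicates 1 and 3 and tnaA replicates 2 and 3. The summed level of that list was 2657 and 2935 CPM on K12 and 3345 and 3299 CPM on tnaA, and its part in the falls of other intestinal genes was not tested. The gene mxl-3 was at 20.8 and 16.23 CPM on K12 and at 34.4 and 35.4 CPM on tnaA, a log2 fold change of -0.91 ± 0.13 (SE), lost only without tnaA replicate 3 among the leave-out fits. The gene hlh-30 was at 78.2 and 75.4 CPM on K12 and at 87.9 and 95.9 CPM on tnaA, a log2 fold change of -0.25. In all, 6 of 22 lipid regulator and synthesis genes fell (27.3%) and 1 rose. The list's count of lower genes was 1, 1, 1 and 0 without K12 replicates 1 and 3 and tnaA replicates 2 and 3.

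A list of lipases joined the lysosomal lipl genes with the lips genes and fil-1. Of its 22 genes tested, 1 rose (4.55%, against 5.85% of all genes) and 2 fell (9.09%, against 4.27%). The lipase gene lipl-3 was at 1.26 and 3.57 CPM on K12 and at 9.85 and 7.21 CPM on tnaA. The lipase gene lipl-1 was at 11.8 and 12.05 CPM on K12 and at 20.9 and 19.7 CPM on tnaA. Both are known fasting-induced genes. Against them, lips-11 was at 20.3 and 14.8 CPM on K12 and at 4.07 and 2.99 CPM on tnaA, a rise of 2.27 ± 0.30 (SE) on the log2 scale. DESeq2, which did not give every gene an adjusted p, called 0 lipase genes in either direction, and edgeR called 3 of them. The edgeR calls did not hold without tnaA replicate 3.

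Autophagy genes fell without exception among those called: 6 of 27 were lower (22.2%) and 0 higher, with a list median of -0.10. At an unadjusted p under 0.05 edgeR had 13 lower and 0 higher, and DESeq2 called 6 and 0. The lipid transfer protein gene atg-2 was at 134 and 143 CPM on K12 and at 186 and 180 CPM on tnaA. The gene unc-51, for the kinase that starts autophagy, was at 135 and 149 CPM on K12 and at 174 and 191 CPM on tnaA. The gene bec-1, for the worm Beclin, was at 109 and 118 CPM on K12 and at 139 and 138 CPM on tnaA, and lgg-1, for the protein that coats autophagosomes, was at 567 and 608 CPM on K12 and at 679 and 698 CPM on tnaA. All 4 were lower on K12 by 0.23 to 0.40 on the log2 scale, and the groups did not overlap. Without K12 replicates 1 and 3 and tnaA replicates 2 and 3, 0, 4, 2 and 0 of the list were called lower.

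A list of lysosomal and digestive proteases also held acid phosphatase genes, among them pho-14. Of its 47 genes tested, 5 rose and 6 fell (10.6% and 12.8%). The aspartyl protease genes asp-5 and asp-6 and the cathepsin L gene cpl-1 fell. The level of asp-5 was 89.8 and 103.8 CPM on K12 and 153 and 142 CPM on tnaA, that of asp-6 was 545 and 561 CPM on K12 and 818 and 725 CPM on tnaA, and that of cpl-1 was 394 and 442 CPM on K12 and 491 and 489 CPM on tnaA. Against these abundant proteases, the low asp-17 rose, with 4.86 and 5.15 CPM on K12 and 0.708 and 0.927 CPM on tnaA. Fewer genes of this list were called without any 1 of the 4 old N2 libraries, and the phosphatase gene pho-14 was called higher each time.

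Called genes of fatty acid oxidation went both ways. In worms the peroxisomal enzymes ACOX-1, DHS-28 and DAF-22 shorten very long chains, also for ascaroside pheromones. Their genes fell: acox-1 was at 34.2 and 45.4 CPM on K12 and at 49.1 and 62.1 CPM on tnaA, dhs-28 at 64.3 and 81.9 CPM on K12 and at 93.0 and 98.5 CPM on tnaA, and daf-22 at 26.2 and 31.8 CPM on K12 and at 37.6 and 37.9 CPM on tnaA. Replicates of acox-1 differed almost as much as the groups did. By contrast ech-7, for an enoyl-CoA hydratase, was at 25.7 and 26.5 CPM on K12 and at 16.105 and 14.7 CPM on tnaA, and kat-1, for the mitochondrial thiolase, was at 111 and 103 CPM on K12 and at 87.6 and 77.2 CPM on tnaA. Over the list of 55 acyl-CoA synthetase, dehydrogenase and oxidation genes 7 rose (12.7%) and 4 fell (7.27%). The counts were 2 and 0, 4 and 6, 3 and 1, and 0 and 0 without K12 replicates 1 and 3 and tnaA replicates 2 and 3. Among 16 desaturase and elongase genes edgeR called 0, with 2 higher and 3 lower before adjustment at a p under 0.05. DESeq2 called 1 higher. In edgeR 1 was lower with library size as the only scaling, and 1 was higher and 1 lower both without a filter on low counts and with only the compared groups fitted.

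Of 15 genes of the hypoxia pathway 5 fell (33.3%) and 0 rose, against 6 and 0 at an unadjusted p under 0.05. The transcription factor gene hif-1 was at 167 and 165 CPM on K12 and at 196 and 193 CPM on tnaA, and its sulphide-responsive target sqrd-1 was at 6.87 and 6.66 CPM on K12 and at 9.32 and 10.7 CPM on tnaA. Both differences were small, -0.23 and -0.56 on the log2 scale. DESeq2 called 3 of the list lower, edgeR without a filter on low counts called 2, and the fits without K12 replicates 1 and 3 and tnaA replicates 2 and 3 called 0, 0, 1 and 0.

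The receptor named in the design did not pass the test. The level of ahr-1 was 3.20 and 2.12 CPM on K12 and 2.60 and 1.75 CPM on tnaA, overlapping, with a log2 fold change of 0.27 ± 0.44 (SE, adjusted p = 0.752). Without K12 replicate 1 its sign turned. Its partner gene aha-1 was at 35.9 and 37.5 CPM on K12 and at 43.8 and 41.1 CPM on tnaA, a log2 fold change of -0.21 ± 0.08 (SE, adjusted p = 0.093). On the host's own tryptophan route, tdo-2, for the dioxygenase that opens tryptophan towards kynurenine, was at 25.2 and 22.04 CPM on K12 and at 32.7 and 29.3 CPM on tnaA and was called lower with an adjusted p of 0.0495. That call was lost without any 1 of 8 of the 11 libraries. The gene umps-1, for the pyrimidine synthesis enzyme, was at 100.1 and 98.5 CPM on K12 and at 78.7 and 83.3 CPM on tnaA and was called higher. That call was lost without any 1 of the 4 old N2 libraries. These were the only calls among 11 tryptophan and kynurenine genes.

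Genes of 4 germline lists, none of them the sperm list, were called in 1 direction only and by small amounts. Of 32 germ cell regulator genes 27 rose (84.4%, against 5.85% of all genes) and 0 fell, with a median of 0.35. Of 34 P granule and small RNA genes 20 rose, of 35 meiosis genes 19, and of 25 oocyte and eggshell genes 16, with 0 lower in each. Members of these and the other lists were chosen with earlier results of these data known, so the shares are not an independent test. None of the 4 lists had a lower member at an unadjusted p under 0.05 by edgeR or a call lower by DESeq2. In whole animals, fewer germ cells and less RNA per germ cell cannot be told apart. The translational regulator gene gla-3 was at 127 and 107 CPM on K12 and at 86.4 and 77.8 CPM on tnaA, and daz-1, for an RNA-binding protein of oogenesis, was at 265 and 239 CPM on K12 and at 195 and 178 CPM on tnaA. The helicase gene cgh-1, which stores maternal messages, was at 1184.2 and 1047.9 CPM on K12 and at 825 and 733 CPM on tnaA. The helicase gene mut-14, needed to amplify small RNAs in the germline, was at 39.8 and 36.5 CPM on K12 and at 26.7 and 25.5 CPM on tnaA, the Argonaute gene wago-4 at 148 and 144 CPM on K12 and at 110 and 109 CPM on tnaA, and the synaptonemal complex gene syp-2 at 41.8 and 41.1 CPM on K12 and at 29.4 and 29.8 CPM on tnaA. In each of the 6 genes the groups were separate.

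The calls in the germline lists rested on single libraries. Germ cell regulators called higher numbered 0 without K12 replicate 1, 19 without K12 replicate 3, 15 without tnaA replicate 2 and 0 without tnaA replicate 3. P granule genes numbered 1, 17, 13 and 1 in the same order, meiosis genes 0, 17, 13 and 0, and oocyte genes 0, 13, 12 and 0. Summed over the 32 germ cell regulators, the level was 12871 and 11869 CPM on K12, 9879 and 9395 CPM on tnaA, and 9305 and 10581 CPM in the old ahr-1(ia3) libraries on K12, of which 1 lay below both tnaA libraries and the other between the N2 groups. In young worms the same sum was 22909 to 24456 CPM. Of 66 sperm genes 0 were called by edgeR or DESeq2, and 0 had an unadjusted p under 0.05 by edgeR. Their median log2 fold change was -1.18, with 55 negative and 9 positive, and it was 0.16 without tnaA replicate 2, the library with reads in the highest number of sperm genes. Without a filter on low counts edgeR called 15 sperm genes lower, and with only the compared groups fitted it called 1.

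Lists of proteasome, translation and DNA replication genes also had more members called higher than genes at large. The part of the germline in these rises was not tested. Of 32 proteasome genes 17 rose (53.1%) and 0 fell, with log2 fold changes from 0.04 to 0.32. The 20S subunit gene pas-7 was at 166 and 157 CPM on K12 and at 134 and 123 CPM on tnaA. It overlaps lact-2 on the opposite strand, which was called lower (log2 fold change -0.455). Of 47 translation factor and tRNA synthetase genes 10 rose (21.3%) and 2 fell, and DESeq2 called 19 higher and 3 lower. The lysyl-tRNA synthetase gene kars-1 was at 504 and 483 CPM on K12 and at 394 and 396 CPM on tnaA. Of 40 DNA replication and cell cycle genes 11 rose (27.5%) and 0 fell, or 18 and 0 with DESeq2's size factors in edgeR. Without K12 replicates 1 and 3 and tnaA replicates 2 and 3, proteasome genes called higher numbered 0, 5, 4 and 0, translation genes 0, 4, 4 and 0, and replication genes 0, 4, 2 and 0. Of 77 cytosolic ribosomal protein genes 4 rose (5.19%, near the 5.85% of all genes) and 2 fell, whereas DESeq2 called 26 higher and 3 lower and edgeR with only the compared groups 21 and 4. Without any 1 of the 4 old N2 libraries 0 of them were called higher.

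Mitochondrial lists differed in how many members were called. Of 18 mitochondrial chaperone and stress genes 7 rose (38.9%) and 0 fell, with 0, 5, 3 and 0 called higher without K12 replicates 1 and 3 and tnaA replicates 2 and 3. Of 63 mitochondrial ribosomal protein genes 6 rose (9.52%) and 0 fell, and 53 of the 63 had a positive log2 fold change, with a median of 0.12. The gene mrps-34 was at 33.2 and 35.5 CPM on K12 and at 27.2 and 26.5 CPM on tnaA. Of 34 nuclear genes of the respiratory chain and ATP synthase 5 rose (14.7%) and 0 fell, against 11 and 0 by DESeq2. The complex II gene sdha-2 was at 132 and 126 CPM on K12 and at 91.8 and 85.6 CPM on tnaA. It was lost only without tnaA replicate 3. The counts were 0, 2, 0 and 0 for the mitochondrial ribosome and 1, 4, 3 and 0 for the respiratory chain without K12 replicates 1 and 3 and tnaA replicates 2 and 3.

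**Figure D3:**
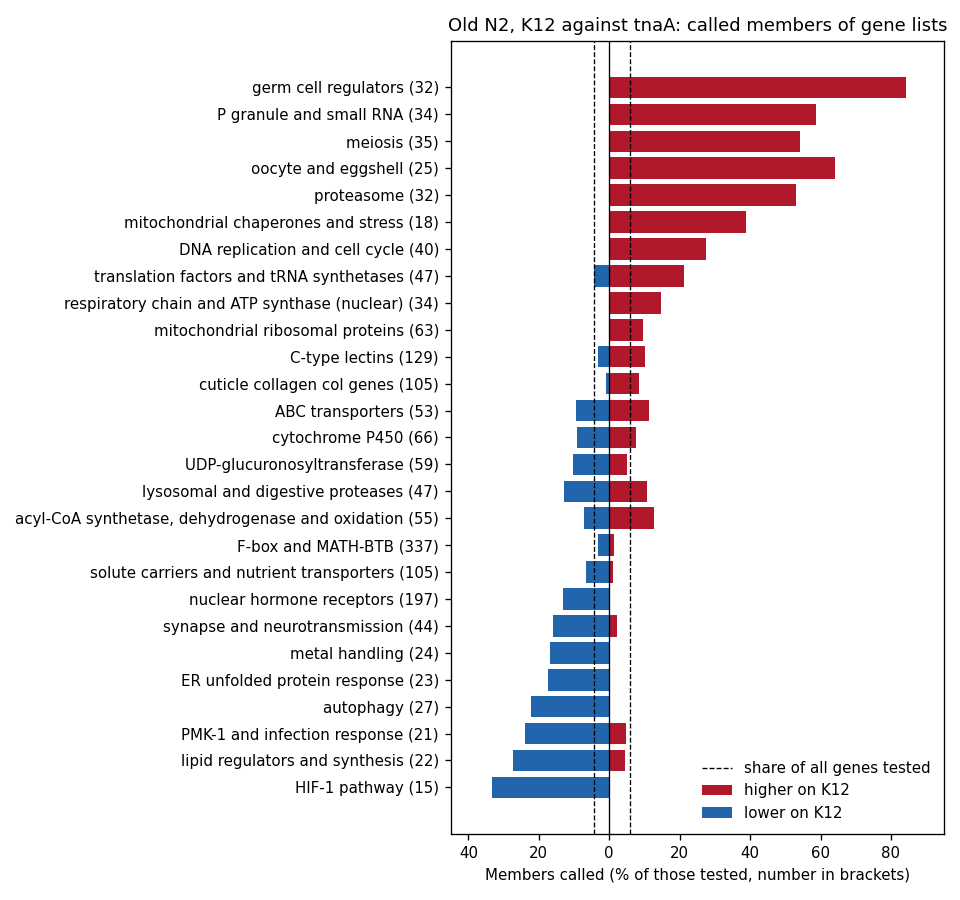
Share of tested members of 27 gene lists called higher on K12 (red, to the right) and lower on K12 (blue, to the left) in old N2 worms, in percent, with the number tested in brackets. Dashed lines mark the shares of all genes tested, 5.85% higher and 4.27% lower; germ cell regulators reach 84.4% higher and the hypoxia list 33.3% lower.

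Among synaptic genes more fell than rose. Of 44 tested 7 fell (15.9%) and 1 rose, with a median of -0.23. The calcium channel gene unc-2 was at 68.1 and 69.6 CPM on K12 and at 87.5 and 88.8 CPM on tnaA, and dyn-1, for the dynamin that recycles vesicles, was at 146 and 152 CPM on K12 and at 180 and 178 CPM on tnaA. The G protein gene egl-30 was at 118 and 115 CPM on K12 and at 141 and 154.6 CPM on tnaA. The 1 gene that rose, tdc-1, makes tyramine in few neurons and in gonadal sheath cells and was at 155.3 and 138 CPM on K12 and at 111 and 97.3 CPM on tnaA. It overlaps gei-14 on the opposite strand, which rose too. Lower synaptic genes numbered 0, 1, 1 and 0 without K12 replicates 1 and 3 and tnaA replicates 2 and 3.

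Genes of the X chromosome leaned towards tnaA. Of 2169 X-linked genes tested 32 rose (1.48%) and 195 fell (8.99%), with a median of -0.22. Of 12700 autosomal genes 843 rose (6.64%) and 438 fell (3.45%), with a median of -0.03. Germline-expressed genes of worms are known to be scarce on the X chromosome. The median of X-linked genes lay between -0.24 and -0.18 and below that of autosomal genes in all 17 other fits. The X-linked calls numbered 7 higher and 3 lower without K12 replicate 1, 12 and 65 without K12 replicate 3, 9 and 51 without tnaA replicate 2, and 1 and 2 without tnaA replicate 3.

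**Figure D4:**
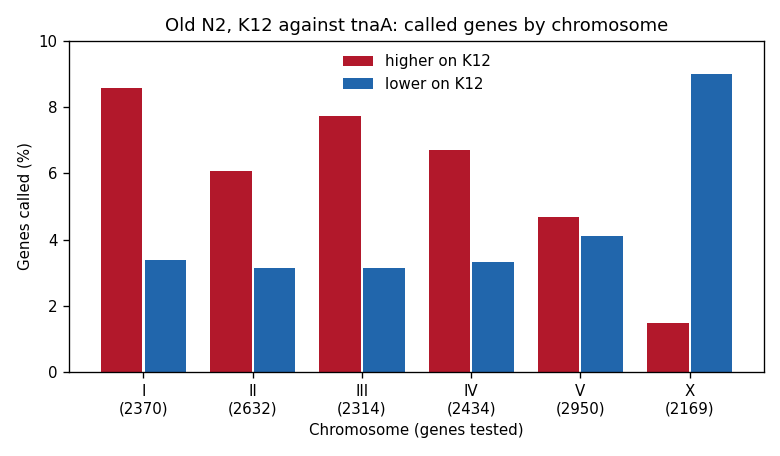
Share of genes called higher (red) and lower (blue) on K12 in old N2 worms, in percent of the genes tested on each chromosome, with the number tested in brackets. On the X chromosome 8.99% were lower and 1.48% higher, whereas on each autosome the share called higher exceeds the share called lower.

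Most rises of 2-fold or more on K12 were of genes with a higher level in young than in old worms. Of the 62 genes that rose 2-fold or more, 44 (71.0%) had a level in young worms at least 2-fold above both old N2 groups, against 13.4% of all genes tested. Over all 886 genes that rose the share was far smaller, 198 genes or 22.3%. Of the 646 genes that fell, 336 (52%) had a level in young worms at least 2-fold below both old N2 groups, against 22.5% of all genes tested. Of the 37 that fell 2-fold or more, 12 (32.4%) were below in young worms and 7 (18.9%) were above. The vitellogenin gene vit-3, for a yolk protein that the intestine of young adults makes in bulk, was at 131 and 230 CPM on K12 and at 11.1 and 12.7 CPM on tnaA, far below the young means of 4670 CPM on K12 and 4609 CPM on tnaA. The cuticle collagen gene col-20 was at 26.4 and 34.1 CPM on K12 and at 4.31 and 5.77 CPM on tnaA, against 2634 and 2977 CPM in young worms. In the old ahr-1(ia3) libraries on K12, vit-3 was at 8.11 CPM, below both tnaA libraries, and at 131 CPM, just under the lower K12 library. In the same libraries col-20 was at 3.09 CPM, below both tnaA libraries, and at 46.5 CPM, above both K12 libraries. The vit-3 call was lost without K12 replicate 1 and without either tnaA replicate, and that of col-20 was lost without any 1 of the 4 old N2 libraries. The vitellogenin family did not share one direction: 2 of 6 genes rose and 0 fell, 4 had a positive log2 fold change, and no more than 1 was called without any 1 of the 4 libraries. Summed over the 6 genes, the level was 11771 and 14273 CPM on K12 and 14832 and 12242 CPM on tnaA, overlapping, against 73743 to 80993 CPM in young worms.

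Genes of nutrient metabolism were among them. The folate transporter gene folt-2 was at 5.72 and 15.3 CPM on K12 and at 0.472 and 0.927 CPM on tnaA, against 349.8 and 397 CPM in young worms. The gene acdh-1, for the acyl-CoA dehydrogenase that starts the alternative propionate breakdown used when vitamin B12 is short, was at 4.75 and 24.7 CPM on K12 and at 1.12 and 1.24 CPM on tnaA, against 692 and 711 CPM in young worms. The K12 replicates of both genes lay far from each other, yet above both tnaA libraries. Of the propionate list the regulator gene nhr-10 fell, at 35.8 and 34.1 CPM on K12 and 46.96 and 44.8 CPM on tnaA, and the hydratase gene ech-6 rose, at 89.04 and 91.3 CPM on K12 and 76.2 and 68.6 CPM on tnaA. The nhr-10 call was lost without any 1 of the 4 old N2 libraries, and that of ech-6 without either K12 replicate or tnaA replicate 3. The calls of folt-2 and acdh-1 were lost without either tnaA replicate.

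To look at such genes without using the old N2 libraries to choose them, genes were taken that averaged at least 50 CPM in young worms and at least 10-fold their mean in old ahr-1(ia3) worms. Of these genes 37 rose (33%, against 5.85% of all genes), 2 fell (1.79%) and 73 were not called, with a median log2 fold change of 0.58. Their median level was 5.40% and 6.16% of that in young worms in the K12 libraries, and 4.05% and 3.74% in the tnaA libraries. The old ahr-1(ia3) libraries stood at 2.57% and 4.91%, although their values helped to choose the genes. The troponin gene tnt-2 was at 16.08 and 19.01 CPM on K12 and at 9.08 and 9.38 CPM on tnaA, and gfi-1 at 9.04 and 12.5 CPM on K12 and at 2.95 and 3.40 CPM on tnaA. Without K12 replicates 1 and 3 and tnaA replicates 2 and 3, 12, 14, 7 and 1 of them were called higher. Of the set, 94 genes had a positive log2 fold change. The 2 called lower were lys-4, whose levels are given above, and the collagen gene col-129, at 0.401 and 0.424 CPM on K12 and at 1.71 and 1.65 CPM on tnaA, a call lost without any 1 of the 4 old N2 libraries.

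**Figure D5:**
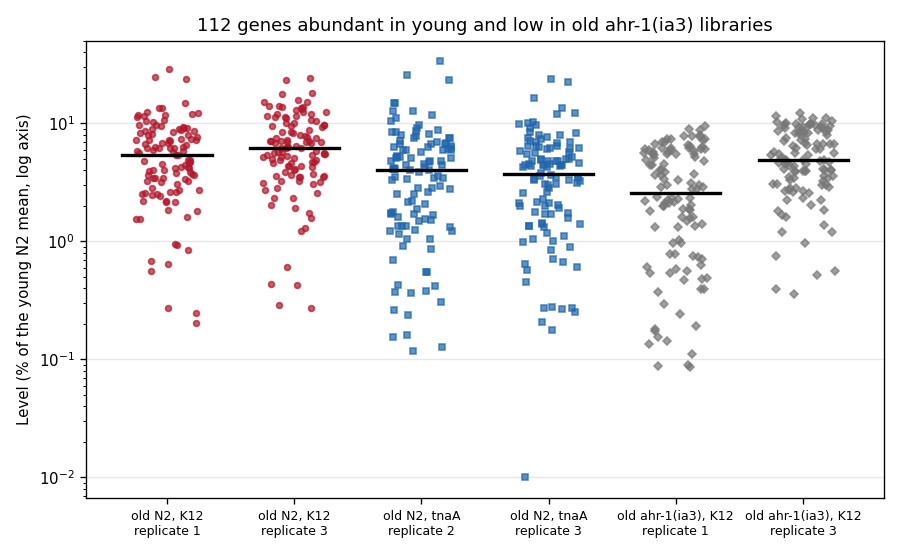
Level of genes abundant in young and low in old ahr-1(ia3) worms, in each old library, as a percentage of the mean of the young N2 libraries on a log axis, 1 point per gene with black bars at the median. The medians are 5.40% and 6.16% in old N2 on K12, 4.05% and 3.74% in old N2 on tnaA, and 2.57% and 4.91% in old ahr-1(ia3); a gene with 0 reads is drawn at the bottom of the axis.

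In young worms the same bacterial contrast called 2 genes higher on K12 (0.0132% of 15133) and 8 lower (0.0529%), or 0.0661% either way, with 650 and 493 at an unadjusted p under 0.05. Young libraries differed within groups: the 85 sperm genes summed to 311, 210 and 608 CPM on K12 and to 661 and 273 CPM on tnaA. Moulting and larval cuticle genes summed to 276, 447 and 472 CPM on K12 and to 255 and 262 CPM on tnaA. Their median log2 fold change in young worms was 1.04. The part of these differences in the young calls was not tested. The transporter gene pgp-1 was called at both ages. Its young levels were 13.3, 11.4 and 9.81 CPM on K12 and 4.73 and 3.76 CPM on tnaA, a log2 fold change of 1.43 ± 0.16 (SE, adjusted p = 0.003), next to 1.64 in old worms. The difference between the ages was 0.21 ± 0.21 (SE, adjusted p = 0.618). The collagen gene col-129 was lower on K12 at both ages, with 88.95 to 111.9 CPM on K12 and 199 to 248 CPM on tnaA in young worms. The gene Y37H2A.14 turned direction: in young worms it was at 7.30 to 9.42 CPM on K12 and at 12.95 and 16.492 CPM on tnaA, a log2 fold change of -0.86, and in old worms at 35.3 and 35.6 CPM on K12 and at 16.6 and 15.6 CPM on tnaA, a log2 fold change of 1.13. The difference between the ages was 1.99 ± 0.18 (SE, adjusted p = 5.34e-04).

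The test of that difference over all genes called 217 genes (1.43%) as more K12-high in old worms and 147 (0.971%) as more K12-low. Together they are 2.41% of the genes tested. The share of K12-high genes among these calls was 59.6%. With DESeq2's size factors in edgeR it was 69.7%, of 610 calls, and with library size as the only scaling 38.5%, of 309 calls, so the balance depended on scaling. Without single libraries the calls numbered 3 to 748, the lowest without old tnaA replicate 2, with 5 without young tnaA replicate 3 and 7 without old tnaA replicate 3. The genes pho-14, mdl-1 and Y37H2A.14 kept their age difference in every leave-out fit. In young worms pho-14 averaged 57.9 CPM on K12 and 59.4 CPM on tnaA, and mdl-1 averaged 29.2 CPM on K12 and 23.1 CPM on tnaA. For ilys-5, the young means of 1009.5 CPM on K12 and 957.8 CPM on tnaA were far above any old library, and the log2 fold change in young worms was 0.08.

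In the authors' deposited table of the same comparison, 968 genes were listed higher on K12 and 412 lower, all with an adjusted p under 0.05. Of the 886 genes called higher here 721 were in the authors' deposited table, which is 81.4% of the calls here and 74.5% of the authors' list. Of the 646 called lower here 344 were in the authors' deposited table, or 53.3% of the calls here and 83.5% of that list. None of these shared genes had opposite directions in the authors' deposited table and in the test here. Both come from the same 4 libraries, so the overlap is not a second measurement.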

How the data were processed

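Whole-worm RNA was sequenced in 11 libraries. The authors deposited whole-number read counts per gene. Their processing notes name STAR, Trim Galore and HTSeq (version 0.6.1p2); the strand setting, build and annotation behind the counts were not given in the sources used here. The authors also deposited a DESeq2 table of listed genes, holding adjusted p-values and log2 fold changes; 8 further columns of per-sample values were not used here.

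Summary lines were removed from 42048 genes. Genes passing filterByExpr (minimum count 10) were fitted with edgeR 4.0.16 in R 4.3.3: TMM scaling, a mean per group over all 11 libraries, 6 residual degrees of freedom, two-sided quasi-likelihood F test, Benjamini-Hochberg adjustment over 15133 genes, calls under 0.05. SE is the size of edgeR's unshrunken log2 fold change divided by the root of F. The printed log2 fold changes are edgeR's shrunken values, which can differ from the unshrunken ones for genes with few reads. DESeq2 1.42.0, other scalings, no filter, fewer libraries, a replicate block and leave-out fits were alternatives. Libraries held 8.31 to 15.3 gene reads in units of 1e6. Replicates, biological by the labels, differed beyond counting noise (chi-square per degree of freedom 2.90 to 5.42). Chromosomes came from a RefSeq table (WBcel235) matched by name for 14869 genes.

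Named genes were the largest changes, the genes called in every leave-out fit, and up to 4 called members per list with the smallest p. The members and the 59 lists were chosen with earlier results of these data known. Chosen after their values were seen were hlh-30, asp-6, cpl-1, daf-22, acox-1, sek-1, pmk-1, pgp-3, cyp-34A9, nhr-129, nhr-47, egl-30, gfi-1, col-129, F37H8.3 and Y37H2A.14. No sequences are printed.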

Additional observations from a re-analysis of the deposited data

Results flagged for a closer look

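The bacterial difference itself differed between old and young worms, at an adjusted p under 0.05 in edgeR's test of the difference, for 39 of the 93 genes named in the text. Over all genes tested the share was 2.41%. Most of the 93 were named because of their difference in old worms, and that difference is part of the value tested. Their higher share is therefore not a separate result. Values are the log2 fold change (K12 over tnaA) in old worms minus that in young worms. Genes with large positive values were folt-2 (4.19), vit-3 (3.92), acdh-1 (3.67), asp-17 (3.15) and col-80 (2.93). Others of this direction were Y37H2A.14 (1.99), F37H8.3 (1.93), ilys-5 (1.82), clec-41 (1.57), pho-14 (1.16), pgp-3 (0.78), ech-7 (0.73), csr-1 (0.54), agt-1 (0.49) and kat-1 (0.45).

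Germline genes differed by smaller amounts, with gla-3 at 0.57, mut-14 at 0.57, syp-2 at 0.56, cgh-1 at 0.54, daz-1 at 0.44 and wago-4 at 0.41. The values were 0.58 for sdha-2, 0.50 for tdc-1, 0.39 for kars-1 and 0.35 for pas-7.

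Negative values, for genes more K12-low in old than in young worms, were found for spp-1 (-1.33), nhr-129 (-1.19), nhr-136 (-1.14), nhr-137 (-1.07), hpo-15 (-1.06), mxl-3 (-1.05), clec-48 (-1.04) and nhr-25 (-1.01). For nhr-25, a member of the moulting list, the log2 fold change was 0.59 in young worms and -0.43 in old worms. The values for mtl-2 (-0.92), lys-4 (-0.92), mdl-1 (-0.90), nhr-10 (-0.50), nsy-1 (-0.49) and atg-2 (-0.45) were smaller in size.

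Of the 39, only 3 remained called without old tnaA replicate 2, 5 without young tnaA replicate 3, 7 without old tnaA replicate 3, 10 without old K12 replicate 3 and 13 without old K12 replicate 1. The genes pho-14, mdl-1 and Y37H2A.14 remained called in all 11 leave-out fits.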

How the results depend on the processing

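For old worms, called genes (higher and lower on K12) numbered 1296 and 990 with only the compared groups fitted, and ran from 10 to 1121 and from 15 to 746 over the leave-out fits. For young worms they numbered 1 and 5 with library size only, 274 and 171 without the filter, 48 and 43 with DESeq2, and 0 and 0 by edgeR with only the compared groups (524 and 647 at an unadjusted p under 0.05), and ran from 0 to 187 and from 4 to 35 over the leave-out fits. For the difference between ages the calls of both directions together numbered 610 with RLE factors, 1323 without the filter, 1244 with only the compared groups and 823 with DESeq2, against 364, and ran from 3 to 748 over the leave-out fits.

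With the replicate number as a block, the test called 21 and 25 genes in old worms, 1 and 5 in young worms and 10 in all for the difference between ages. The old groups share only number 3, and those 2 libraries did not deviate together (r = 0.01), so the numbers are not taken as pairs. Over the leave-out fits the log2 fold change of mtl-1 ran from -0.53 to 0.088, positive without old K12 replicate 3 and without old tnaA replicate 2 (0.049), and that of ahr-1 ran from -0.052, without old K12 replicate 1, to 0.61. Neither gene was called in any of these. Of the 89 named genes called, none changed direction under any alternative that gave a value. The alternatives reuse the libraries by which these genes were chosen, so this is a weak check. With 2 libraries per group and 1 of them at 8.31 gene reads in units of 1e6, genes under about 1 CPM rest on few reads. The causes of these shifts were not tested.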
